A study of Mus musculus with 6 samples.

Results

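RUNX1 binding was examined at the genes of 10 cell-cycle regulators in mouse granulosa cells, which line the ovarian follicle and nurse the oocyte. The genes are the cyclins Ccnd1, Ccnd2, Ccnd3 and Ccne1, the cyclin-dependent kinases (CDKs) Cdk4 and Cdk6, and the CDK inhibitors Cdkn1a, Cdkn1b, Cdkn1c and Cdkn2c. They are 10 of the 21887 protein-coding genes that the RefSeq table of GRCm38.p6 places on chromosomes. A peak was assigned to a member when its summit lay inside the gene body or within 50 kb of either end, whichever other gene lay nearer. This gave 125 of the 51515 deposited peaks.

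The peaks come from chromatin immunoprecipitation and sequencing (ChIP-seq) with a RUNX1 antibody in CBA x C57BL/6 F1 mice aged 21 days. All mice had been primed with 5 IU of eCG, an equine gonadotropin that makes follicles grow. The 0 h group holds 2 libraries of pre-ovulatory granulosa cells, labelled 0 h after hCG, the human gonadotropin used in place of the luteinising hormone surge. The 6 h group holds 2 libraries of peri-ovulatory granulosa cells from mice given 5 IU of hCG 46 h after eCG and collected 6 h later, and each time point has 1 pooled input. The treatment description attached to every sample, 0 h libraries included, is of mice killed 6 h after hCG. It conflicts with the 0 h label, which rests on the titles and the time label alone, and every 0 h value below depends on that label. Whether cells of several mice were pooled in a library is not given in the sources used here. The labels do not say that replicates came from separate animals, so their spread may be technical. Peak lists carry no expression values, and the labelled cell type was not checked here.

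D-type cyclins bind CDK4 or CDK6, and cyclin E binds CDK2. These kinases phosphorylate the retinoblastoma protein and so release E2F factors for entry into S phase. Inhibitors of the CIP/KIP family, namely p21 (Cdkn1a), p27 (Cdkn1b) and p57 (Cdkn1c), bind cyclin-CDK complexes, while p18 (Cdkn2c), of the INK4 family, binds CDK4 and CDK6. In growing follicles granulosa cells divide under follicle-stimulating hormone, with cyclin D2 as a required factor, and after the ovulatory surge they leave the cell cycle and luteinise.

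RefSeq promoters on GRCm38.p6, which reach from 250 bases before to 50 bases after a start, matched 7 of the 10 members, with 10 promoters. Summits of both 6 h libraries lay inside a promoter of 3 of the 7 genes, Ccnd3, Cdk4 and Cdkn1b, and 16.7% of the 17492 protein-coding genes with a listed promoter had this. Of the 7 genes only Cdk4 had summits of both 0 h libraries in its promoter, against 0.846% of the 17492, and so summits of all 4 libraries, against 0.743%. The stretches below are shown because these summits lie in or beside them. Capitals mark the RUNX core TGTGGT or its variant TGCGGT, which reads ACCACA or ACCGCA where it lies on the opposite strand.
Cdk4, 250 bases before the start, chr10:127063285-127063534, plus strand: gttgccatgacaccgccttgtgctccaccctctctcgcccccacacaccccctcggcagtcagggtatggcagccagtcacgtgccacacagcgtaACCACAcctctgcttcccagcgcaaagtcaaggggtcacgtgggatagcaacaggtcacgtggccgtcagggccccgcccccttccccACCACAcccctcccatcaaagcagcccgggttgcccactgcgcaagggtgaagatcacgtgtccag
Ccnd3, 30 bases of the gene around the match beside its first start, chr17:47505066-47505095, plus strand: cagctcgagttcTGCGGTgcagcgcggact
Cdkn1b, 250 bases before the start, chr6:134920151-134920400, plus strand: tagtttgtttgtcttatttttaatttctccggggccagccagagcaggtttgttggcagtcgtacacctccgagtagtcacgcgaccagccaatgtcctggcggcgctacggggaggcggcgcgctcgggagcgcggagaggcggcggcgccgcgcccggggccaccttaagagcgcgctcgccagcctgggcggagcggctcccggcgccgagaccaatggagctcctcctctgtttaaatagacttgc

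The Cdk4 promoter held 2 copies of TGTGGT, both on the strand opposite to the gene, and their first bases lay 154 and 66 bases before the start. The summits of the 4 libraries fell between these copies. They were 24 to 48 bp from the middle of the first copy and 40 to 64 bp from the middle of the second. In the first promoter of Ccnd3 there was 1 copy of TGCGGT, whose first base is base 28 of the gene. The 6 h summits lay 10 and 3 bp from its middle in replicates 1 and 2, and the summit of 0 h replicate 2 lay 143 bp from it. No copy of either word occurred in the Cdkn1b promoter, nor in the other 7 member promoters. For comparison, TGTGGT on either strand was found in 15.0% of the 21263 listed promoters of protein-coding genes. The share was 13.9% of the 3103 promoters with a summit of both 6 h libraries and 22.8% of the 136 with a summit of all 4 libraries. TGTGGT or TGCGGT was found in 21.6%, 29.5% and 56.6% of these sets. A match is a description of the letters, and the median GC content also differed, at 56.3%, 65.3% and 64.3%.

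The lists differed in length far more than in their background. They held 948 and 3135 peaks at 0 h and 18761 and 28671 peaks at 6 h. The fold enrichment and p-value of each peak were solved for the reads covering its summit and for the expected background, and the genome-wide background was 2.77 and 2.65 reads at 0 h and 2.76 and 2.13 at 6 h. The lowest −log10 p of the lists was 9.01 to 9.18, and at that background a peak reaches it with 16 to 18 reads. A site without a 0 h peak may therefore have held up to about that many reads, or more where the local background was higher. List length touches the counts below, so counts of members are set beside the share of all protein-coding genes, and counts of peaks or regions beside the whole lists or all regions.

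More peaks lay near the members at 6 h than at 0 h. The libraries held 6 and 13 such peaks at 0 h, a mean of 9.5 ± 4.95 (SD, n = 2), and 44 and 62 at 6 h, a mean of 53 ± 12.7 (SD, n = 2). Groups did not overlap, and the means differed 5.58-fold, against 11.6-fold for the whole lists. The size rested on the 0 h libraries: without 0 h replicate 2 the folds were 8.83 for the members and 25.02 for the lists, and without 0 h replicate 1 they were 4.08 and 7.56. Without Cdkn1b the members' fold was 8.73. For 9 of the 10 members each 6 h library had more peaks than each 0 h library, and 64.7% of all protein-coding genes had this. No member had fewer in each 6 h library, against 0.00457% of genes, and Cdkn1b was the exception to the 9. With 2 libraries against 2 the exact two-sided permutation test cannot give a p below 0.333, so this test cannot call a difference at any single member. All 10 members had a replicated 6 h region, meaning overlapping peaks from both replicates joined into 1 interval, against 68.9% of protein-coding genes. A replicated 0 h region was found near 4 members, namely Ccnd3, Cdk4, Cdkn1b and Cdkn2c, against 8.76% of genes. At least 1 peak of a 0 h library lay near 5 members, the other being Ccne1, against 28.7% of genes. The median window was 109626 bp for the members and 117169 bp for all genes.

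**Figure D1:**
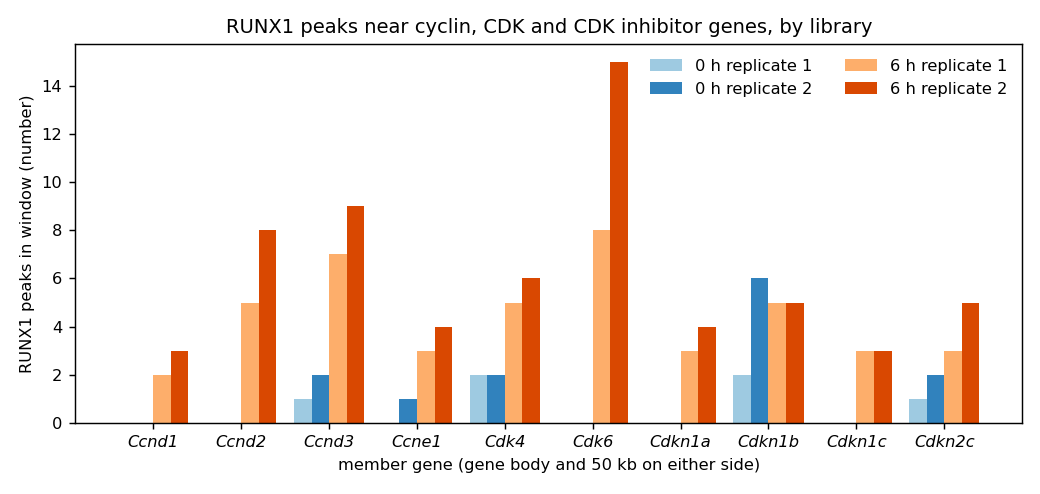
Number of RUNX1 peaks (vertical axis) within the gene body and 50 kb of each member (horizontal axis), 1 bar per library. The 6 h bars are above the 0 h bars for 9 members, and at Cdkn1b 0 h replicate 2 has 6 peaks against 5 in each 6 h library.

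As a share of its list, each 0 h library had more peaks near the members than either 6 h library. The shares were 0.633% (exact Clopper-Pearson 95% CI 0.233 to 1.37) and 0.415% (95% CI 0.221 to 0.708) at 0 h. At 6 h they were 0.235% (95% CI 0.170 to 0.315) and 0.216% (95% CI 0.166 to 0.277). The intervals cover counting error only, and those of the time points overlap. Without Cdkn1b the shares were 0.422% and 0.223% at 0 h and 0.208% and 0.199% at 6 h, so the ratio of the 0 h to the 6 h mean went from 2.32 to 1.59. Inside the gene bodies alone the 0 h libraries had 1 and 3 peaks, or 0.105% and 0.0957% of their lists. The 6 h libraries had 18 and 27 there, or 0.0959% and 0.0942%. These shares were close, but 1 and 3 peaks are too few to show whether the difference persisted. When each list was cut to its 948 most significant peaks, 6 and 6 peaks lay near the members at 0 h and 4 and 2 at 6 h. Without Cdkn1b these were 4 and 4 against 2 and 0, so in equal lists the ratio of the 0 h to the 6 h mean went from 2 to 4. These few peaks gave wide intervals that overlap. The 95% CI was 0.115% to 1.08% for each 0 h list, and 0.0256% to 0.760% and 0% to 0.388% for the 6 h lists. In these equal lists no member had more peaks in each 6 h library than in each 0 h library, and 2.33% of all genes did. Ccnd3 and Cdk4 had fewer, as did 2.8% of all genes, and Cdkn1b had 2 peaks in each of the 4 libraries.

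**Figure D2:**
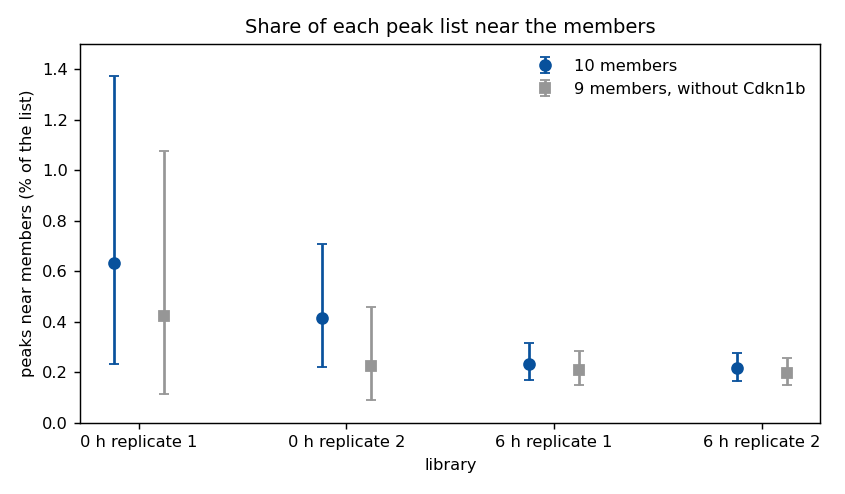
Share of each peak list that lies near the members (vertical axis, % of the list) for the 4 libraries, with all 10 members (circles) and without Cdkn1b (squares). Bars are exact 95% intervals of the counting error, and the 0 h shares of 0.633% and 0.415% have wide intervals because they rest on 6 and 13 peaks.

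The 41 replicated 6 h regions near the members ranged from the bottom to the top of the 6 h lists. Their median percentile of fold, averaged over both libraries, was 60.5, against 59.1 for all 17190 replicated 6 h regions. A percentile is the rank of a peak within its own list, since fold values of different libraries are not on a common scale. Of the 41 regions, 6 overlapped a replicated 0 h region, or 14.6%, against 4.60% of all regions. Another 5, or 12.2%, overlapped a peak of 0 h replicate 2 alone, against 11.5% of all regions, and 30, or 73.2% (95% CI 57.1 to 85.8), overlapped no 0 h peak, against 83.5% of all regions. Cdkn1b held 4 of the 11 regions with a 0 h peak. Without it the shares of the remaining 37 regions were 10.8%, 8.11% and 81.1% (95% CI of the last 64.8 to 92.0). The 11 regions with a 0 h peak had a median percentile of 88.4 and the 30 without one a median of 47.2. In the library with fewer reads, the 30 regions had 28 to 75 reads at the summit, with a median of 39. A region lay within 1 kb of an end of the gene at 6 members, namely Ccnd3, Ccne1, Cdk4, Cdk6, Cdkn1b and Cdkn1c, against 37.3% of genes. At 0 h only Cdk4 had one, against 1.49% of genes.

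**Figure D3:**
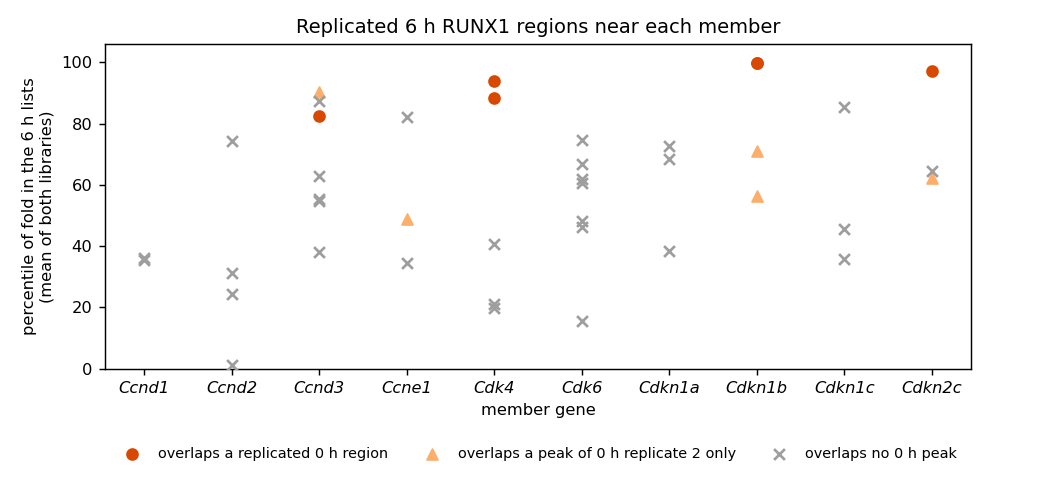
Mean percentile of fold in both 6 h lists (vertical axis) for each of the 41 replicated 6 h regions near the members (horizontal axis), with symbols for what was called at the same place at 0 h. The 2 highest regions at Cdkn1b, at 99.6 and 99.9, overlap each other in the plot, and both were replicated at 0 h.

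Among the D-type cyclins, Ccnd2 and Ccnd1 had no 0 h peak. Ccnd2, on chromosome 6 at 127125162 to 127152188, had 0 and 0 peaks at 0 h and 5 and 8 at 6 h. Its highest-ranking region, at 127154956 to 127155847, lay 2945 bp outside the gene beyond the end with the higher coordinate. The fold was 11.0 and 17.3, at percentiles 69.1 and 79.3 of the lists, with 43 and 57 reads at the summit. A pair of regions lay inside the gene near the same end, the closer of them 1768 bp from it, with a fold of 6.36 and 8.25. Still closer peaks, at 314 bp in replicate 1 and at 30 bp in replicate 2, did not overlap each other and so gave no replicated region. The remaining region, 99 bp from Tigar, ranked at percentiles 0.922 and 1.28.

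Ccnd1, on chromosome 7 at 144929931 to 144939831, had 0 and 0 peaks at 0 h and 2 and 3 at 6 h. Its region inside the gene, at 144937542 to 144938033, had a fold of 7.0 and 9.73 and stood at percentiles 30.01 and 42.1, with 51 reads in each library. The other region was 93 bp from the neighbour LTO1 and 14924 bp from Ccnd1. Both ranked below the median of all 6 h regions.

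Ccnd3, on chromosome 17 at 47505051 to 47599689, was the D-type cyclin with peaks at both times. It had 1 and 2 peaks at 0 h and 7 and 9 at 6 h, and 6 other coding genes reach into its window. The region at its first start, at 47504613 to 47505353, had its summit 32 bp inside the gene. Its fold was 15.9 and 30.3, at percentiles 86.7 and 94.1, with 71 and 112 reads. At 0 h only replicate 2 had a peak there, at percentile 14.7. A second region, 3074 bp inside the gene at 47507857 to 47508542, was called in all 4 libraries. Reads at the summit were 31 and 35 at 0 h and 87 and 152 at 6 h, and the percentiles were 53.6 and 78.5 at 0 h and 73.6 and 91.1 at 6 h. A region at the second listed start of Ccnd3, with its summit 115 bp after that start, had no 0 h peak and a fold of 7.54 and 15.3.

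Ccne1 encodes cyclin E1 and lies on chromosome 7 at 38097984 to 38107490, with no other coding gene within 50 kb. Peaks numbered 0 and 1 at 0 h and 3 and 4 at 6 h. Its highest-ranking region, at 38061082 to 38061740, lay 36688 bp beyond the end of the gene, with a fold of 11.3 and 28.9 at percentiles 70.9 and 93.3, and no 0 h peak overlapped it. The region at 38084839 to 38085545, 12911 bp beyond the end, overlapped the single 0 h peak, which had a fold of 5.64 at percentile 15.7 of its list. The region nearest to the start had its summit 480 bp before it, at percentiles 12.4 and 56.3. Each Ccne1 region ranked higher in 6 h replicate 2 than in replicate 1. So did every replicated 6 h region of Ccnd1, Ccnd2, Ccnd3, Cdk6, Cdkn1a, Cdkn1c and Cdkn2c, while Cdk4 and Cdkn1b had regions of both kinds.

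Cdk4, which encodes a partner of the D-type cyclins, lies on chromosome 10 at 127063535 to 127067288 in a dense stretch, where 9 other coding genes reach into its window. It had 2 and 2 peaks at 0 h and 5 and 6 at 6 h. The promoter region printed above, at 127063036 to 127064069 at 6 h, had 23 and 37 reads at the summit at 0 h and 215 and 156 at 6 h. The 6 h summits were 1 bp apart, the merged one 104 bp before the start. The fold was 5.38 and 8.80 at 0 h, at percentiles 13.0 and 73.7, and 27.3 and 24.8 at 6 h, at percentiles 97.3 and 90.4. The other region called in all 4 libraries lay inside Tsfm, 32732 bp from Cdk4, with 34 and 48 reads at 0 h and 96 and 136 at 6 h. Only 2 of the 5 regions at 6 h had Cdk4 as the nearest coding gene.

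Cdk6, which encodes the other D-cyclin kinase, lies on chromosome 5 at 3341004 to 3531008 and has the longest gene body of the members, at 190005 bp. It had 0 and 0 peaks at 0 h and 8 and 15 at 6 h, the most of any member. Of its 7 replicated regions, 6 lay inside the gene. The region nearest to a gene end, at 3341153 to 3341684, had its summit 446 bp inside the gene, with a fold of 7.71 and 11.8 and 29 and 36 reads. The region nearest to the listed promoter, at 3343631 to 3344812, had its summit 319 bp after that start, and its fold of 9.28 and 13.1 placed it at percentiles 56.6 and 64.4. The highest-ranking region inside the gene, at 3428897 to 3429253, lay 88072 bp from the gene start with 32 and 57 reads. The highest-ranking of all, at 3543649 to 3544472, was inside Fam133b. All 7 regions were without a 0 h peak.

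Of the CIP/KIP inhibitors, Cdkn1a, on chromosome 17 at 29090979 to 29100722, had 0 and 0 peaks at 0 h and 3 and 4 at 6 h. Its highest-ranking region, at 29078807 to 29079226, lay 11943 bp before the gene start, with a fold of 9.73 and 20.2 at percentiles 60.2 and 85.1. A wide region of 1642 bp inside the gene, at 29094130 to 29095771, had its summit 941 bp after the second listed start, with 66 and 91 reads. Neither overlapped a 0 h peak. Cdkn1c, on chromosome 7 at 143458339 to 143461059, had 0 and 0 peaks at 0 h and 3 and 3 at 6 h. A region at 143460944 to 143461237 spanned the end of the gene with the higher coordinate. The summit lay 16 bp inside the gene in replicate 1 and 27 bp outside it in replicate 2, with a fold of 7.30 and 9.25 and 45 reads in each library. The highest-ranking one, at 143493405 to 143494130, was inside Slc22a18, 32749 bp away, at percentiles 85.0 and 85.7.

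Cdkn1b, on chromosome 6 at 134920401 to 134925525, had the most 0 h peaks of the members in replicate 2 and, with Cdk4, in replicate 1. It had 2 and 6 peaks at 0 h and 5 and 5 at 6 h, so the groups overlapped (two-sided exact permutation p = 1, with 2 libraries per group). The overlap rests on the weaker peaks of 0 h replicate 2. Without that library all 10 members had more peaks at 6 h, against 68.2% of genes, and without replicate 1 the Cdkn1b mean was 1 peak lower at 6 h. With all 4 libraries and only peaks of −log10 q 20 or more, Cdkn1b had 2 and 3 peaks at 0 h and 4 and 4 at 6 h, and all 10 members were higher at 6 h, against 59.7% of genes. In the full list of 0 h replicate 2, at least 6 peaks in the window were found at 33 of the 21887 genes, or 0.151%. Several of the 6 Cdkn1b peaks in that list fall within the interval of a single wide 6 h peak, described below. The count of 6 against 5 therefore depends partly on how peaks were divided there. The 2 peaks of 0 h replicate 1 were matched or passed at 286 genes, or 1.31%. In the 6 h lists 17.4% and 28.8% of genes had at least the 5 peaks of Cdkn1b. All 4 of its replicated 6 h regions overlapped a 0 h peak, 2 of them a replicated 0 h region and the others a peak of replicate 2 alone.

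The first of these regions, called the near region here, lay 2888 bp beyond the end of Cdkn1b, at 134926697 to 134928900, and 8012 bp after its start. It had 72 and 141 reads at the summit at 0 h and 208 and 255 at 6 h. The fold was 19.4 and 38.9 at 0 h, ranking 15 of 948 and 4 of 3135 peaks, and 41.7 and 62.4 at 6 h, ranking 77 of 18761 and 94 of 28671. The far region, at 134961344 to 134962593, lay 36415 bp beyond the end of Cdkn1b. Apold1 was the nearest coding gene, at 20061 bp. Reads numbered 42 and 61 at 0 h and 205 and 248 at 6 h. Its fold was 10.3 and 15.3 at 0 h, ranking 184 and 108, and 54.8 and 79.5 at 6 h, ranking 12 and 15. Summits of the replicates differed by 2 bp at 0 h and 6 bp at 6 h in the far region, and by 42 and 3 bp in the near one. Both regions were at or above percentile 99 of both 6 h lists. A region of that rank lay near 1.3% of genes, and 2 of them near 0.0137%, which is 3 genes: Cdkn1b, Clec10a and Runx1 itself. This limit was chosen after the values were seen.

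The balance between the near and far regions differed between the time points. At 0 h the near summit had 1.71 times (95% CI 1.16 to 2.57) and 2.31 times (95% CI 1.70 to 3.17) as many reads as the far one in replicates 1 and 2. At 6 h the ratio was 1.01 (95% CI 0.833 to 1.24) and 1.03 (95% CI 0.860 to 1.23). Intervals are exact and cover counting error only, and the ratio needs no scaling for depth. The groups did not overlap, which in an exact permutation test gives the smallest possible p of 0.333, and the comparison was chosen after the values were seen. By fold the order turned, from 1.88 and 2.53 at 0 h to 0.760 and 0.785 at 6 h. The highest count at any summit was 400 and 399 reads in the 6 h lists, and how duplicate reads were treated is not given in the sources used here. With the counts corrected for a ceiling at 400 the ratios were 1.79 and 2.63 at 0 h and 1.02 and 1.05 at 6 h. Reads were also divided by the genome-wide background of each library. The ratio of the 6 h to the 0 h mean was then 2.46 at the near region and 4.99 at the far one. These values lie close to the quartiles of that ratio, 2.45 and 4.95, over the 805 regions called in all 4 libraries. How often other regions differ from each other this much was not counted.

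**Figure D4:**
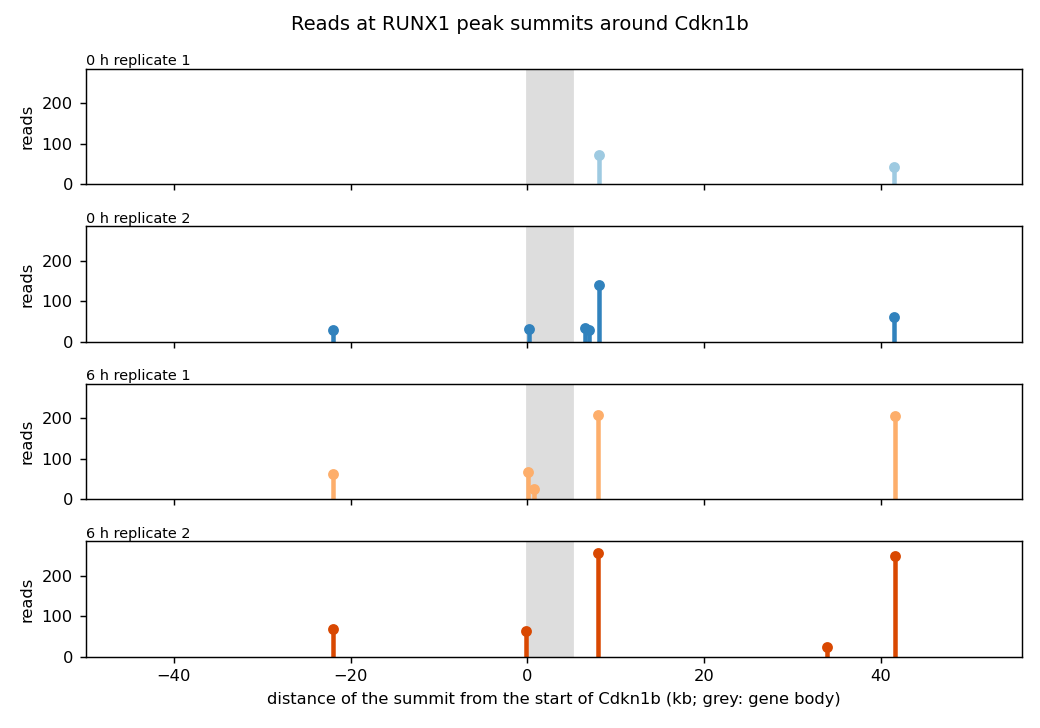
Reads at the summit of each RUNX1 peak (vertical axes, same scale) by distance from the start of Cdkn1b (horizontal axis, kb), 1 panel per library, with the gene body in grey. The near and far regions stand 8012 and 41539 bp after the start, with 72 and 42 reads in 0 h replicate 1 and 255 and 248 in 6 h replicate 2.

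At the start of Cdkn1b the 6 h region at 134919771 to 134921327 was weaker, with 67 and 63 reads and percentiles of 72.9 and 69.4. At 0 h replicate 2 had a peak there with its summit 132 bp after the start and 32 reads, and replicate 1 had none. The fourth region lay 190 bp from Gpr19. In 0 h replicate 2 another pair of peaks, 1380 and 1884 bp beyond the end of Cdkn1b, fell within the interval of the near region at 6 h, where each 6 h library had a single wide peak.

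Cdkn2c, on chromosome 4 at 109660876 to 109666756, is the INK4 member. It had 1 and 2 peaks at 0 h and 3 and 5 at 6 h. The highest-ranking region, at 109676112 to 109677210, was called in all 4 libraries, with 25 and 45 reads at 0 h and 135 and 155 at 6 h. Its percentiles were 33.9 and 92.9 at 0 h and 96.9 and 97.3 at 6 h. This summit lay 9789 bp before the Cdkn2c start and 82 bp from the neighbour Faf1. The region at 109657096 to 109657803, 3436 bp beyond the end of Cdkn2c, had no 0 h peak and ranked at percentiles 62.7 and 66.2. The remaining region, at 109612451 to 109612858, overlapped a peak of 0 h replicate 2 and lay 48192 bp from the gene. At the start of Cdkn2c itself only 6 h replicate 2 had peaks.

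The 6 regions called in all 4 libraries were compared between the time points after dividing the reads at the summit by the genome-wide background of the library, a measure chosen after the data were seen. All 6 were higher in each 6 h library than in each 0 h library, as were 90.9% of the 805 such regions in the genome. The ratio of the 6 h to the 0 h mean was lowest at the near Cdkn1b region, at 2.46, and highest at the Cdk4 promoter, at 6.79. It was 4.99 at the far Cdkn1b region, 4.68 at Cdkn2c, 4.22 at Ccnd3 and 3.25 at the region inside Tsfm. Over the 805 regions the median ratio was 3.70 and the quartiles 2.45 and 4.95. The near Cdkn1b region had 26.0 and 53.2 times the background at 0 h, above the other 5 regions in both libraries, and 75.4 and 120 times at 6 h.

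**Figure D5:**
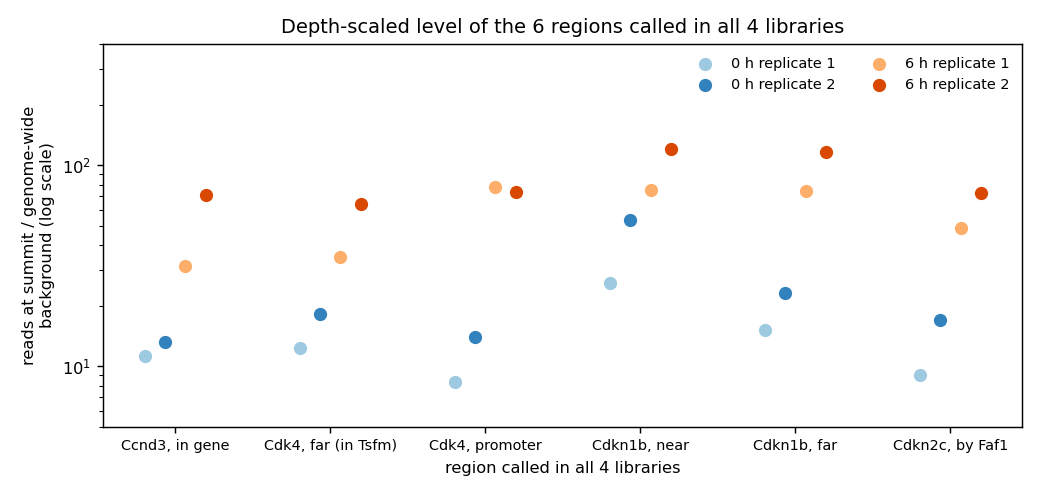
Reads at the summit divided by the genome-wide background of the library (vertical axis, log scale) for the 6 regions called in all 4 libraries (horizontal axis), 1 point per library. The 6 h points lie above the 0 h points in every region, and the Cdk4 promoter has the widest gap, from 8.30 and 14.0 at 0 h to 77.9 and 73.2 at 6 h.

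Other genes of the cell cycle were counted in the same windows. The list holds 30 genes of the A, B, E and H cyclins, CDKs, further inhibitors, retinoblastoma family, E2F and DP factors, and the regulators CDC25, WEE1 and SKP2. All 30 had more peaks in each 6 h library than in each 0 h library and a replicated 6 h region, beside 64.7% and 68.9% of all genes. The median number of peaks was 3 and 3.5 in the 6 h libraries, against 4 and 5 for the members and 2 and 3 for all genes. A replicated 0 h region was found near 2 of the 30, E2f6 and E2f2, against 8.76% of genes. Neither lay at the E2F gene, since the first was 46019 bp from E2f6 with Greb1 nearest and the second 38291 bp from E2f2 with Id3 nearest. The list was chosen with results of these data known, and no test was made on it.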

How the data were processed

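The data are 4 lists of RUNX1 peaks, 1 per ChIP library. Per the submitters' processing notes, reads were aligned with Bowtie2 2.2.5 to mm10 and peaks called with MACS2, with an input pooled per time point, per the labels. The settings and filters are not given in the sources used here. The authors' deposited values are fold enrichment (a ratio), the −log10 p and −log10 q, and a score that was not used. The inputs entered only through the peak calls. Members, lists and comparisons were chosen with earlier results of these data known.

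Peaks were assigned by summit to gene bodies and 50 kb on either side (RefSeq, GRCm38.p6), with Python 3.11.15, pandas 2.3.3 and scipy 1.17.1. Replicated regions were merged peaks of both replicates sharing at least 1 bp. Reads at the summit and background were solved from fold and p with a misfit of at most 0.005, found for 100% of peaks. These steps were tested on simulated data. All members were named, with the highest-ranking region, each region also called at 0 h and the region nearest a gene end or listed start. Libraries were grouped by time as labelled, and peak numbers per member were compared with the two-sided exact permutation test.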

Additional observations from a re-analysis of the deposited data

How the results depend on the processing

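The counts of members were recomputed with other windows, stricter or equal lists, other overlap rules and without each library. In the gene body alone, 5 members had more peaks in each 6 h library, 5 had a replicated 6 h region and 1 a replicated 0 h region, against 29.8%, 35.4% and 2.07% of all protein-coding genes. The log2 ratio of mean peak numbers was then 3.49, against 2.48 with 50 kb, and the ratio of shares (6 h over 0 h) 0.945, against 0.430. Requiring a −log10 q of 20 or more left 1 member with a replicated 0 h region, against 3.87% of genes. When only peaks with the member as the nearest coding gene counted, 3 members had a replicated 0 h region. The ratio of shares was then 0.522, and no share of all genes is given for this rule. Equal lists gave 0 members with more peaks at 6 h, against 2.33% of genes, 1 with a replicated 6 h region, against 6.85%, and a log2 ratio of −1. In equal lists the difference in mean peak number, 6 h minus 0 h, was −1 at Ccnd3, −1.5 at Cdk4 and −0.5 at Cdkn2c. Without Cdkn1b, chosen after seeing the data, the ratio of shares was 0.630, and in equal lists it went from 0.5 to 0.25. The last value rests on only 2 and 0 peaks in the 6 h libraries. Leaving out 1 library at a time, the Cdkn1b difference ran from −1 to 3, the log2 ratio from 2.03 to 3.14 and the ratio of shares from 0.356 to 0.544.

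The labels do not say what a replicate number marks. Deviations of same-numbered libraries had a correlation of 0.117 across genes, and 2 pairs cannot settle a pairing. With the replicate block, 9 members were higher at 6 h in both pairs, against 66.6% of genes, the log2 ratio was 2.56 and the ratio of shares 0.440.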
